A study of Mus musculus with 2 samples.

Results

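The 10 histone genes described here are H2afy, H2afx and H2afz (H2A variants), H3f3a and H3f3b (both encode the H3.3 variant), the linker histone genes H1f0, H1fx, Hist1h1b and Hist1h1c, and the clustered H2B gene Hist1h2bc. They are 10 of the 17608 genes in the table. They were chosen by name, macroH2A and H1 variants for their level by stage and replication histones for their level by cell cycle, with the values of these samples known. The levels by stage that follow are therefore a description and support nothing by themselves.

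The study profiled single cells from the E14.5 fetal liver of C57BL/6 mice, a stage at which red cells form mainly there, to compare isolation methods for red cell progenitors. All cells were labelled low for CD71, the transferrin receptor, and CD24. A first library of 904 cells mixed pools that carried hashing antibodies, FACS BFU-E and FACS CFU-E (sorted by fluorescence) and PE-low and PE-high, names that the labels do not explain, although the title of this library names a magnet beside FACS. In it, 2 cells were named unknown and are in no pool. A second library of 2453 cells carried antibodies to CD117 (KIT) and CD71 (CITE-seq), and 122 of its cells were named CS BFUE and 195 CS CFUE. The other 2136 had no pool name. A BFU-E is an early and a CFU-E a later progenitor restricted to the red cell lineage. No genotype or transgene is named for any group. How many embryos were pooled, and how cells were assigned to a pool name, was not given in the sources used here. Growth with 100 uM dexamethasone, a glucocorticoid, or with methanol is also described, without saying whether the sequenced cells had either. FACS BFU-E, PE-low and CS BFUE are called the earlier pools, and FACS CFU-E, PE-high and CS CFUE the later pools.

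Histones package DNA. Core histones H2A, H2B, H3 and H4 form the nucleosome, and a linker histone of the H1 family binds where DNA enters and leaves it. Most core and linker histone genes lie in clusters and are transcribed during DNA replication, and their mRNAs end in a stem-loop in place of a poly(A) tail. Variants such as H2A.Z, H3.3, macroH2A and H1.0 are made from separate genes with polyadenylated mRNAs throughout the cell cycle. Red cell precursors condense their chromatin strongly before the nucleus is lost. The 10x 3' version 3 kit captures RNA by its poly(A) tail. Levels of clustered histone genes, and of H2afx and the other variants, thus count only what this chemistry captured.

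Promoters are shown for Hist1h1b, Hist1h1c and H3f3b, whose levels were higher together in cells with a high S phase share. The promoter of H1f0, a linker histone gene that has none of the motifs searched, is shown too. H1f0 was also higher in cells with a high S phase share, as given further on. RefSeq's promoter table (GRCm38.p6) had an entry for 8 of the 10 genes, and H2afx and Hist1h2bc had none. Each line is the 150 bases before the start of transcription that this table lists, read in the direction of the gene. For H3f3b that start lies inside the span of the gene given further on, so its line precedes an internal start and not the outer end of the span. Capitals mark matches, on either strand, to CCAAT (which reads ATTGG where it lies on the opposite strand), to the H1 box (AAACACA) and to a TATA motif (TATAAA). No matches overlapped.
Hist1h1b, chr13:21780626-21780775, minus strand: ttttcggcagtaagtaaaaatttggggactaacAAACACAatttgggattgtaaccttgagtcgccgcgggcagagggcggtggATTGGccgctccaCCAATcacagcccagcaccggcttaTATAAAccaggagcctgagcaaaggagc
Hist1h1c, chr13:23738657-23738806, plus strand: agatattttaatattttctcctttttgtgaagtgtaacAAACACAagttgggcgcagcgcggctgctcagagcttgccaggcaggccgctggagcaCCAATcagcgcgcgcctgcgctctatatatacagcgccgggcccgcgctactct
H3f3b, chr11:116024505-116024654, minus strand: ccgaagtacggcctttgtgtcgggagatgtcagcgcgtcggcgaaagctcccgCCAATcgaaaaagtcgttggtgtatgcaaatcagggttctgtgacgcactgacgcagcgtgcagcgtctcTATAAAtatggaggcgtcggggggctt
H1f0, chr15:79028062-79028211, plus strand: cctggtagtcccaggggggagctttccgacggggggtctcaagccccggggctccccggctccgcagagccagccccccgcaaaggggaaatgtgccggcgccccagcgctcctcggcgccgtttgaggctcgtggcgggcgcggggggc

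The H1 box, known from replication-linked H1 genes, began at -117 in Hist1h1b and at -112 in Hist1h1c, counted from the start of transcription. A CCAAT followed at -53 and -54 in these genes. Hist1h1b had a further CCAAT on the opposite strand, whose leftmost base in the printed line is at -66, another at -168, before the printed stretch, and a TATAAA at -28. H3f3b had a CCAAT at -97 and a TATAAA at -27, and 3 more CCAAT matches farther up, within the 250 bases searched. H2afz had 2 CCAAT matches. H3f3a had 1 CCAAT and 1 H1 box match on the opposite strand at -181. H2afy, H1f0 and H1fx had no match to these letters. Of 27025 mouse promoters of the same length, 34.5% held a CCAAT, 6.22% the H1 box and 13.0% a TATAAA. A match describes letters only.

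The cells of each pool were summed, and a level is given in CPM, the unique molecular identifiers (UMIs) of the gene per 1000000 UMIs of the pool. The pools held 122 to 294 cells with median depths of 23449 to 38663.5 UMIs per cell. Each pool is 1 sample, so there is no replicate check, no test and no p-value for any difference. Intervals are 95% and cover counting error only (exact Poisson for levels, exact conditional binomial for ratios). A ratio is called past 1.5-fold, a size limit without a test. Kit, the stem cell factor receptor, stood at 77.8 to 119 CPM in the earlier pools and 42.5 to 70.8 in the later ones. Tfrc, which encodes CD71, stood at 58.6 to 107 CPM in the earlier pools and 276 to 326 in the later ones, which matches the order of the names. The libraries shared 0 cell barcodes.

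Myeloid transcripts were present in the earlier pools. Granulocyte progenitor markers (5 genes) summed to 633 to 1338 CPM in the earlier pools and 6.42 to 183 in the later ones. Monocyte and macrophage markers (8 genes) summed to 139 to 343 CPM and 2.25 to 70.5 CPM. In FACS CFU-E, Elane, Ms4a3, Ctss, C1qa, C1qb and Ly86 of these were at 0, and in CS CFUE Elane and Ms4a3. All 5 granulocyte markers had UMIs in each earlier pool, where C1qa was at 0 (and in CS BFUE also Ly86). Cells with more than 10 UMIs in these markers, or more than 10 in megakaryocyte, mast cell, lymphoid, hepatocyte and endothelial markers, are called cells of other types below. They numbered 78 of 233 in FACS BFU-E, 58 of 208 in PE-low, 41 of 122 in CS BFUE, 1 of 167 in FACS CFU-E, 21 of 294 in PE-high, 6 of 195 in CS CFUE and 160 of 2136 among cells without a pool. In pooled levels, more cells of a type and more RNA per cell cannot be told apart.

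Some of the 10 genes were past 1.5-fold higher in the earlier pool of at least 1 stage pair. They were the macroH2A gene H2afy, the DNA damage variant H2afx, the linker genes H1f0 and H1fx, and Hist1h2bc. Of these, H1f0 stayed within 1.5-fold in the PE pair (1.47), and Hist1h2bc in the PE (1.37) and CS (1.44) pairs. H2afz, H3f3a, H3f3b, Hist1h1b and Hist1h1c stayed within 1.5-fold in all 3 stage pairs. Past 1.5-fold were 5 of the 10 between FACS BFU-E and FACS CFU-E, where 18.7% of all genes compared were past it, and all 5 were higher in FACS BFU-E (9.58% of all genes, with 9.15% lower). They were 3 of 10 between PE-low and PE-high (12.8% of all genes, 6.94% higher and 5.84% lower in PE-low), namely H2afy, H2afx and H1fx. They were 4 of 10 between CS BFUE and CS CFUE (19.5% of all genes, 8.77% higher and 10.7% lower in CS BFUE), without Hist1h2bc. These shares count genes that reached 50 CPM, and a UMI in 10% of cells, in either pool compared. H1fx met that filter in none of these pairs. Of the members that met it, 4 of 9, 2 of 8 and 3 of 8 were past 1.5-fold, with median log2 ratios of 0.13, 0.04 and 0.18 against -0.04, -0.02 and -0.07 over all genes compared. Because the genes were chosen with these contrasts known, nothing is read from the counts.

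**Figure D1:**
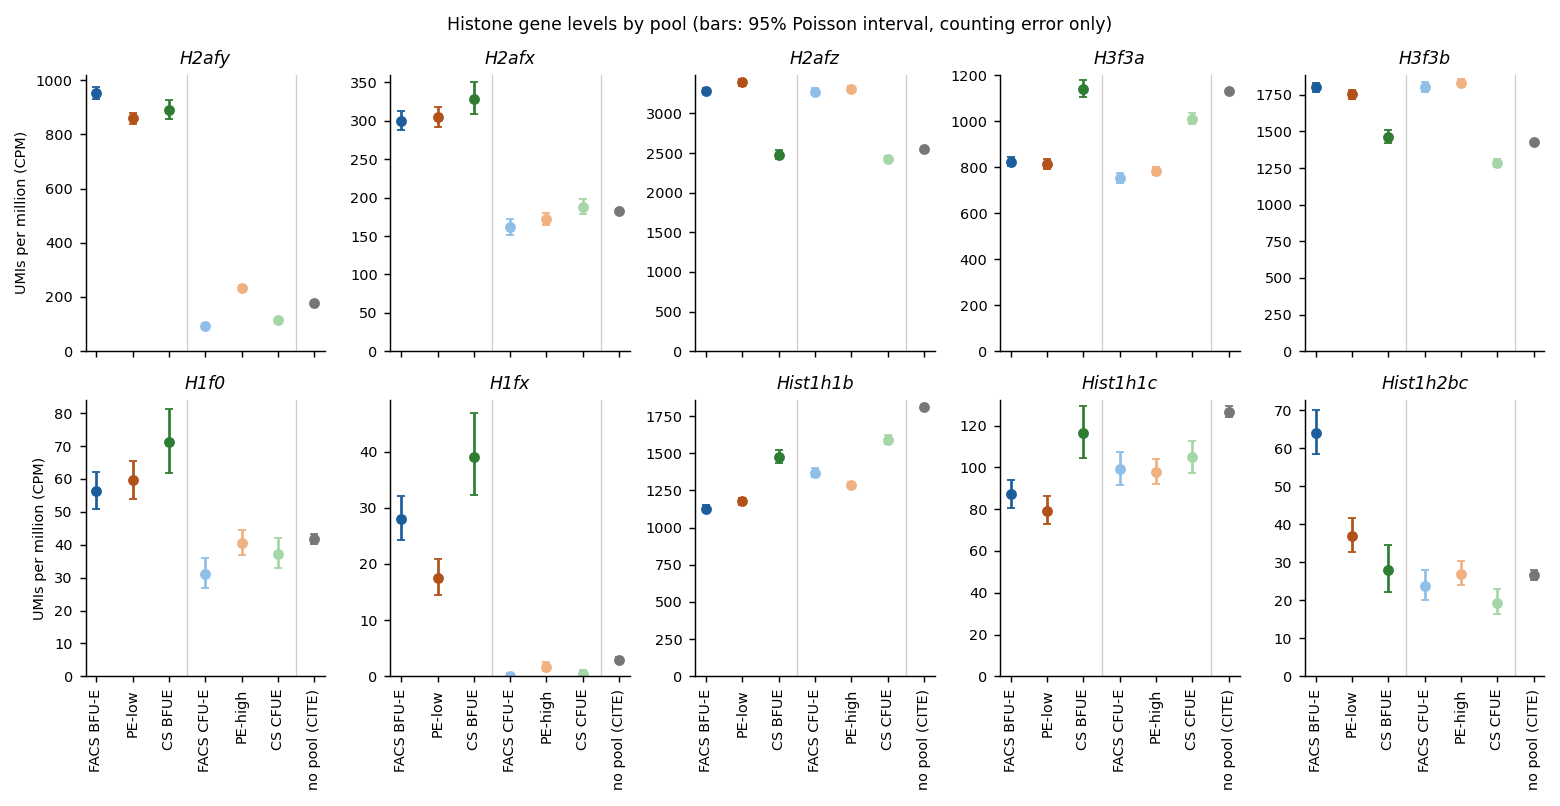
Level of each of the 10 genes in CPM (linear axes from 0) in the 3 earlier pools, the 3 later pools and the CITE-seq cells without a pool, with 95% Poisson intervals for counting error. H2afy, H2afx, H1f0 and H1fx lie higher in the 3 earlier pools than in the 3 later ones. Hist1h2bc does so narrowly, at 28.0 in CS BFUE against 27.0 in PE-high. H2afz, H3f3a and H3f3b separate by library instead. How many of all genes separate in these ways was not counted.

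H2afy (chr13:56073622-56135626, RefSeq symbol Macroh2a1) encodes macroH2A1, an H2A variant with a large additional domain that is found in transcriptionally quiet chromatin. It stood at 954 CPM (932 to 976) for FACS BFU-E, 859 for PE-low and 891 for CS BFUE, and at 91.8 (84.4 to 99.6) for FACS CFU-E, 233 for PE-high and 116 for CS CFUE. The value over cells without a pool was 177 CPM. The earlier pools did not overlap the later ones. The ratio was 10.4 (9.54 to 11.3) in the FACS pair, 3.68 (3.51 to 3.86) in the PE pair and 7.69 (7.12 to 8.32) in the CS pair. The related macroH2A2 gene H2afy2 was at 2.26 CPM or less in all pools.

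A large part of this H2afy RNA lay in the cells of other types. Those cells held 70.8% of the H2afy UMIs of FACS BFU-E, 67.8% of those of PE-low, 70.8% of those of CS BFUE and 46.7% of those of PE-high. Their H2afy level was 2233, 2238, 1987 and 2235 CPM in these pools. Without them, H2afy stood at 399 CPM in FACS BFU-E against 84.3 in FACS CFU-E, at 374 for PE-low against 131 for PE-high, and at 381 for CS BFUE against 99.3 for CS CFUE. The FACS ratio was then 4.73, the PE ratio 2.86 and the CS ratio 3.84, all still past 1.5-fold and below the ratios over all cells. Among these remaining cells the middle 50% of the single-cell values ran from 269 to 506 CPM in FACS BFU-E and from 45.1 to 115 in FACS CFU-E. The medians were 397 and 78.9 CPM, and the quartile ranges did not overlap.

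**Figure D2:**
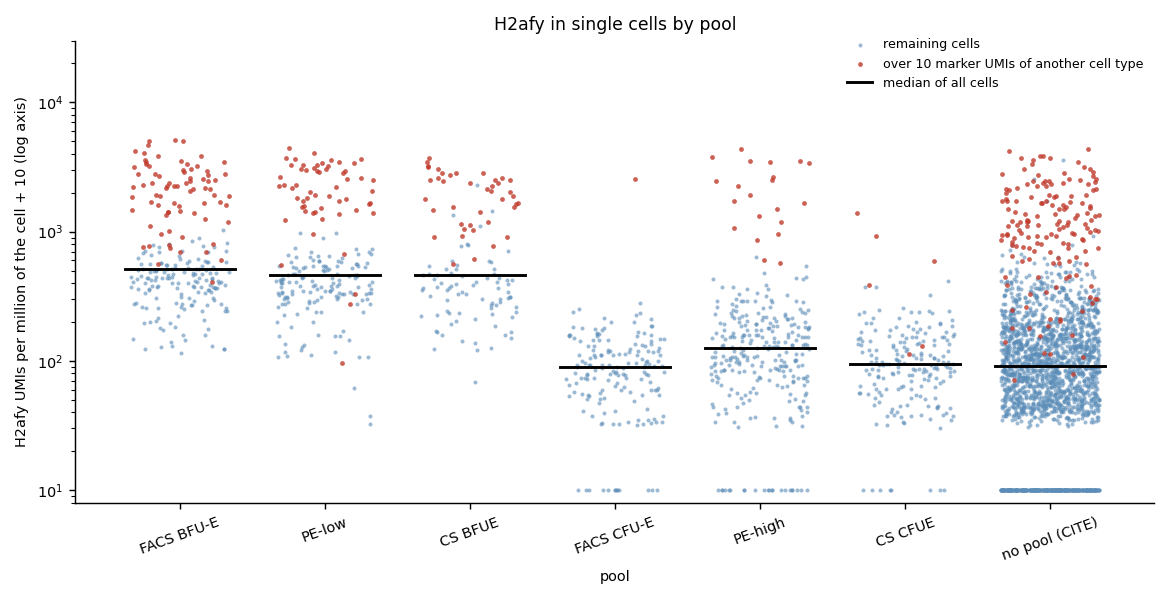
H2afy in every single cell, as CPM of the cell plus 10 on a log axis, by pool, with cells over 10 marker UMIs of another type in red and the median of all cells as a black line. Red cells lie mostly above the rest in the earlier pools and PE-high, where their medians are 1911 to 2198, and the remaining cells of the 3 earlier pools also lie above those of the 3 later pools.

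Along a stage index, H2afy became lower step by step. The index is the log2 ratio, per cell, of 11 CFU-E stage genes to 8 early genes (100 CPM added to each), with no histone gene in it, and cells were divided into quintiles (5 equal groups) of each library. From the earliest to the latest quintile H2afy stood at 2014, 422, 257, 116 and 72.6 CPM in the hashed library, and at 700, 153, 96.3, 59.7 and 48.4 in the CITE-seq library. The first quintile was 27.7 times (25.3 to 30.5) and 14.4 times (13.3 to 15.7) the last. Without cells of other types these ratios were 7.85 (6.89 at the lower bound) and 6.26 (5.73). That left 29 of 181 cells in the first hashed quintile, and 300 of 491 in the first CITE-seq quintile. The index shares its genes' libraries and depth with H2afy, and this ordering is a range of a score and not a set of cell types.

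**Figure D3:**
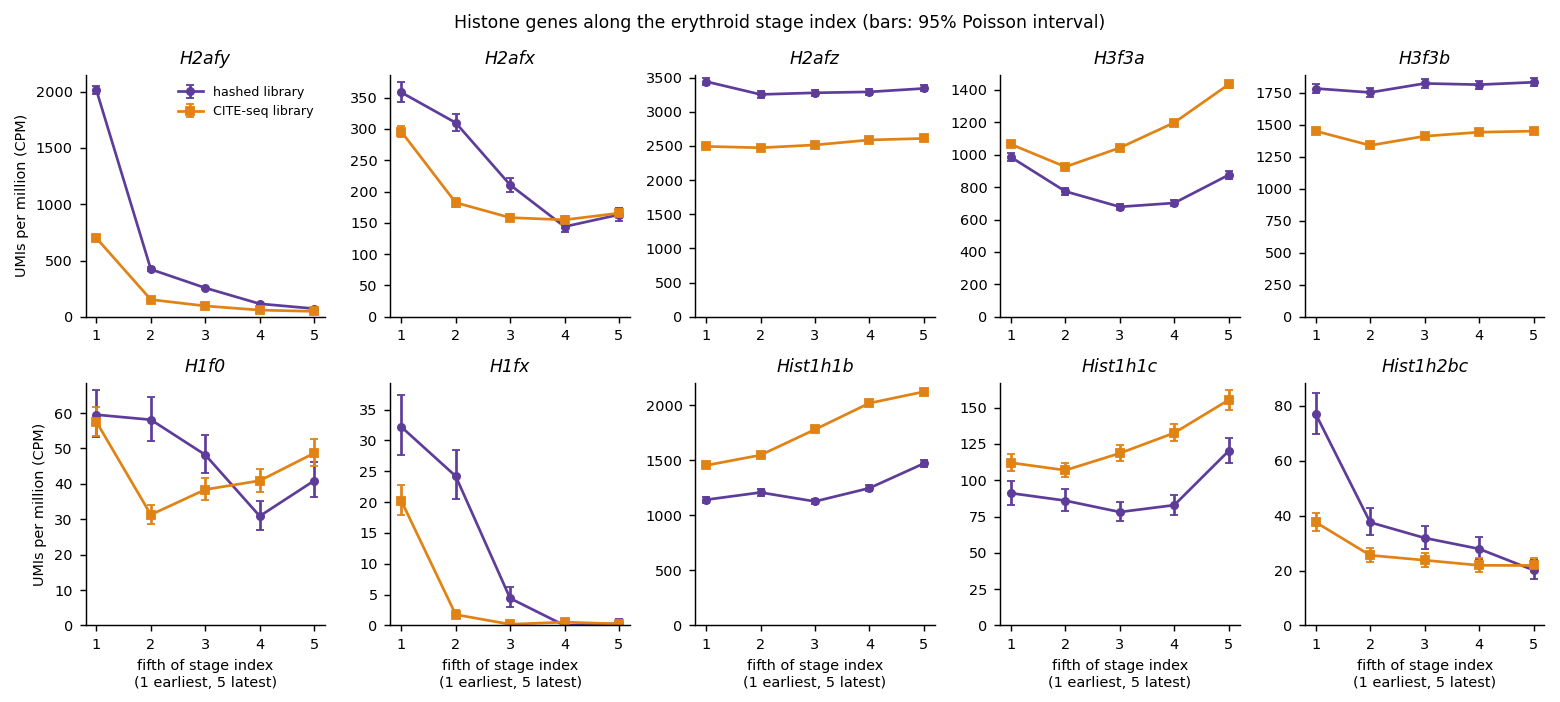
Level of the 10 genes in CPM (linear axes from 0, bars 95% Poisson intervals) in quintiles of the stage index, 1 earliest and 5 latest, in the hashed and CITE-seq libraries. H2afy and Hist1h2bc are lower in each later quintile of both libraries, H1fx is near 0 in the last quintiles, and Hist1h1b is highest in the last quintile.

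The H2afy stage ratio was also present within ranges of the cell cycle, over all cells and so with cells of other types included. Each library was split at the median share of UMIs from 39 S phase genes and at that from 51 G2/M genes, lists that hold no histone gene. In the FACS pair, H2afy was 8.93 (7.75 to 10.3) times higher in FACS BFU-E among cells high for S and low for G2/M and 9.25 (7.89 to 10.9) times among cells low for S and high for G2/M. In the CS pair the ratio was 7.84, 6.91 and 8.09 in the 3 ranges with at least 20 cells in both pools. In the PE pair it was 2.11, 2.08 and 3.86. Within a pool, cells above the S median had between 0.588 and 1.18 times the H2afy of cells below it, and the interval lay below 1 in 3 of the 7 groups of cells and above 1 in 1. By the G2/M split the ratios ran from 0.398 to 1.20, with 4 intervals below 1 and 1 above. H2afy thus had no common direction over the cycle within pools, although it was lower in S high cells of each whole library (0.592 hashed, 0.607 CITE-seq), where pools of different stage are mixed.

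Between methods, H2afy was past 1.5-fold in the later pools and within it in the earlier ones. PE-high had 2.54 times (2.32 to 2.79) the level of FACS CFU-E, where 0.829% of all genes compared were past 1.5-fold and 0.706% were higher and 0.123% lower in PE-high. H2afy and H1fx were the 2 of the 10 genes past it. The 21 cells of other types in PE-high move with this difference: without such cells the ratio was 1.55. Within the fourth quintile of the stage index it was 1.49 (1.27 to 1.74), and within the last quintile 0.984 (0.816 to 1.19). PE-low against FACS BFU-E gave 0.901 (0.870 to 0.932). In the first quintile of the index PE-low and PE-high cells stood at 1960 and 2095 CPM, a ratio of 0.935 (0.878 to 0.998). Cells of other types made up 84.0% of this hashed quintile, in which PE-high had 22 cells, so the ratio describes mostly such cells. In the third quintile, with 0% cells of other types, PE-low and PE-high stood at 326 and 194 CPM, a ratio of 1.67 (1.48 to 1.89).

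The genes most like H2afy over the 2136 cells without a pool, by Pearson r of the deposited natural log values, were Arhgdib (r = 0.79), Cmtm7 (0.79) and Gmfg (0.75). Over the 904 hashed cells the same pairs gave 0.86, 0.84 and 0.82. Of the other 9 genes described here, H1fx (r = 0.30) and H2afx (0.30) were closest to H2afy. Cells of a library share its preparation and differ in depth, and these correlations are descriptions. Cells of other types were included, and they held 42.1% of the H2afy UMIs among the cells without a pool.

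H2afx (chr9:44334715-44336077, RefSeq symbol H2ax) encodes the H2A variant that is phosphorylated around DNA breaks. Its level was 300.1 CPM for FACS BFU-E, 305 for PE-low and 329 for CS BFUE, and 161 for FACS CFU-E, 172 for PE-high and 188 for CS CFUE. Over cells without a pool it was 182. All 3 earlier pools were above all later ones. The ratio was 1.86 (1.72 to 2.00), 1.77 (1.66 to 1.88) and 1.75 (1.61 to 1.90). Cells of other types held 35.4% of its UMIs in FACS BFU-E, 33.2% in PE-low and 41.0% in CS BFUE. Their H2afx level was 351, 389 and 425 CPM in these pools, against 278, 276 and 284 in the remaining cells. Without such cells the 3 ratios were 1.72, 1.67 and 1.54. Of 10 genes of the DNA damage response at H2AX, 1 was compared in the FACS pair, 3 in the PE pair and 1 in the CS pair, and 0 of them were past 1.5-fold.

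H2afx also followed the cell cycle, in every group of cells. Cells above the library's median G2/M share had more H2afx than cells below it in all 7 groups (6 pools and the cells without a pool), with ratios of 1.14 to 2.40 and each interval above 1. In CS BFUE this was 481 against 201 CPM, a ratio of 2.40 (2.10 to 2.75). PE-high had the smallest difference, 181 against 158 CPM (1.14, 1.04 to 1.26). Cells above the S median had less H2afx in all 7 groups, with ratios of 0.510 to 0.749 and each interval below 1. Over the whole CITE-seq library H2afx was 1.55 times higher in G2/M high cells and the sole one of the 10 genes past 1.5-fold upward, where 2.65% of all genes were. In the hashed library it was 1.32 times higher, and 0 of the 10 genes were past 1.5-fold upward beside 3.09% of all genes.

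The stage difference of H2afx was present within cycle ranges as well. Among cells low for S and high for G2/M the ratio of earlier to later pool was 2.02 (1.81 to 2.27) for FACS, 1.77 (1.61 to 1.96) for PE and 2.23 (2.01 to 2.47) for CS. Among cells high for S and low for G2/M it was 1.79, 1.35 and 1.73. Among cells low for both, a range with at least 20 cells in both pools of the PE and CS pairs, it was 1.54 (1.31 to 1.83) and 1.30 (1.04 to 1.63). The pools differed in cycle make-up: cells high for both shares were 2.58% of FACS BFU-E, 6.73% of PE-low and 0.820% of CS BFUE, against 28.7% of FACS CFU-E, 38.1% of PE-high and 14.9% of CS CFUE. The genes most like H2afx were Top2a (r = 0.37), the topoisomerase of mitotic chromosomes, Arl6ip1 (0.35) and Cdk1 (0.35), the mitotic cyclin-dependent kinase. The r values over hashed cells were 0.25, 0.41 and 0.33.

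H2afz (chr3:137864487-137866922, RefSeq symbol H2az1) encodes H2A.Z, a variant found at promoters. It stood at 3283 CPM for FACS BFU-E and 3277 for FACS CFU-E, 3395 for PE-low and 3314 for PE-high, and 2479 for CS BFUE and 2423 for CS CFUE. The level over cells without a pool was 2549. Stage ratios were 1.00 (0.983 to 1.02), 1.02 and 1.02. The 2 libraries differed more than the stages did, as all 4 hashed pools lay above all 3 CITE-seq groups. None of the 13 genes of H2A.Z exchange and removal was past 1.5-fold in a stage pair (8 compared in each). Ran (r = 0.34), Ranbp1 (0.32) and Ptma (0.30) were most like it.

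H3f3a (chr1:180802560-180813605) and H3f3b (chr11:116021961-116026039) encode the same H3.3 protein, the H3 variant that is deposited outside replication. Both have near-identical processed copies in the genome, so how the authors' counting split reads between them is uncertain, and the same holds for H2afz. H3f3a stood at 824 and 752 CPM for FACS BFU-E and FACS CFU-E, 813 and 783 for PE-low and PE-high, and 1141 and 1011 for CS BFUE and CS CFUE. H3f3b stood at 1802 and 1803, 1754 and 1833, and 1462 and 1286 CPM in the same order. Over cells without a pool H3f3a was at 1131 and H3f3b at 1428 CPM. The hashed pools were lower than the CITE-seq groups for H3f3a and higher for H3f3b, and stage ratios ran from 0.957 to 1.14 over both genes.

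The H3.3 genes differed along the stage index and the cycle, and their r with each other was -0.005 (0.064 over hashed cells). H3f3a in the CITE-seq library stood at 1064 CPM in the first stage quintile, 925 in the second and 1433 in the last, and the last was 1.35 times (1.32 to 1.38) the first. In the hashed library it was 985 in the first quintile, 678 in the third and 875 in the last, lowest in the middle. Cells of other types made up 38.9% of the first CITE-seq and 84.0% of the first hashed quintile. Without them, H3f3a stood at 929 CPM in the first and 1434 in the last CITE-seq quintile. In the hashed library these levels were 927, over the 29 cells left in the first quintile, and 875 CPM. H3f3b was higher in cells above the S median than below it in all 7 groups, with ratios of 1.06 to 1.26 and each interval above 1. It was most like Hist1h1b (r = 0.50), Hist1h1e (0.48) and Hist1h1a (0.45), all linker histone genes of the replication-linked cluster, and the hashed cells gave 0.48, 0.45 and 0.42. H3f3a was most like the globin genes Hba-a1 (0.55), Hba-a2 (0.54) and Hbb-bs (0.51), yet the hashed cells gave 0.18, 0.19 and 0.20. The alpha-globin genes are near-identical copies. None of 8 genes of H3.3 deposition was past 1.5-fold in the FACS or PE pair, and in the CS pair Asf1a, an H3-H4 chaperone, was lower in CS BFUE (105 CPM) than in CS CFUE (168).

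H1fx (chr6:87980421-87981482, RefSeq symbol H1f10) encodes a replication-independent linker histone. It had 206 UMIs (27.9 CPM) for FACS BFU-E and 0 for FACS CFU-E, 124 (17.5 CPM) for PE-low and 18 (1.64 CPM) for PE-high, and 116 (39.1 CPM) for CS BFUE and 3 (0.410 CPM) for CS CFUE. Over cells without a pool it had 184 UMIs (2.96 CPM). It was low in every later pool. Against a limit of 3 counts for the pool at 0, H1fx was at least 58.0-fold higher in FACS BFU-E. The PE ratio was 10.7 (6.50 to 18.6) and the CS ratio 95.3 (31.8 to 469), an interval that is wide because of the 3 UMIs. Without cells of other types the FACS bound was 42.3 and the PE ratio 24.2, and the level in PE-high was 0.764 CPM in place of 1.64.

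In stage quintiles of the hashed library H1fx stood at 32.2, 24.2, 4.41, 0 and 0.305 CPM. In the CITE-seq library it was 20.2, 1.76, 0.190, 0.544 and 0.236. Beyond the first 3 hashed and the first 2 CITE-seq quintiles, H1fx had between 0 and 8 UMIs in each. PE-high had 18 UMIs against 0 for FACS CFU-E, at least 3.40-fold higher. After each cell was thinned to 10000 UMIs the same bound was 0.947, too low to give a direction. PE-low against FACS BFU-E gave 0.627 (0.497 to 0.787), and 0.906 without cells of other types, which held 49.0% of the H1fx UMIs of FACS BFU-E. Cd9 (r = 0.40), Vim (0.39) and Cd63 (0.37) were most like H1fx, and the hashed cells gave 0.33, 0.45 and 0.37.

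H1f0 (chr15:79028212-79030504) encodes H1.0, a linker histone known to accumulate in cells that leave the cycle. It stood at 56.3 CPM for FACS BFU-E, 59.6 for PE-low and 71.1 for CS BFUE, and at 31.1 for FACS CFU-E, 40.4 for PE-high and 37.3 for CS CFUE. Over cells without a pool it was at 41.7. The ratios were 1.81 (1.52 to 2.16), 1.47 (1.29 to 1.69) and 1.91 (1.58 to 2.29), of which the PE ratio lay just under the 1.5-fold limit. Leaving out cells of other types changed its level in FACS BFU-E from 56.3 to 56.6 CPM, and those cells had 55.6 CPM. Along the stage index it had no single direction. The CITE-seq quintiles were 57.5, 31.3, 38.4, 40.9 and 48.7 CPM, lowest in the second. The hashed quintiles were 59.5, 58.1, 48.2, 30.9 and 40.9 CPM, lowest in the fourth. Cells above the S median had 1.06 to 1.61 times the H1f0 of cells below it. That ratio was above 1 in all 7 groups (6 pools and the cells without a pool), with 4 intervals above 1 and 0 below. Over the cells without a pool no gene reached an r of 0.2 with H1f0.

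**Figure D4:**
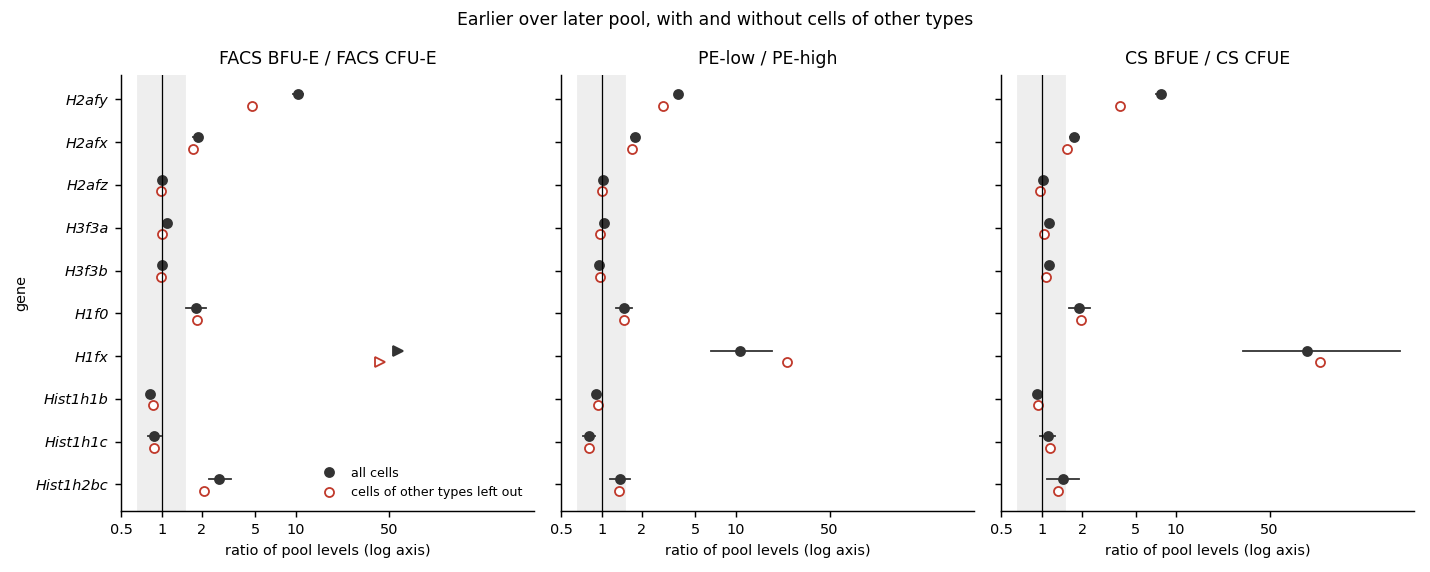
Ratio of the earlier to the later pool (log axis) for the 10 genes in the 3 stage pairs, over all cells (filled, with 95% intervals) and with cells of other types left out (open), where triangles are lower bounds and the grey band spans 1.5-fold either way. H2afy goes from 10.4 to 4.73 in the FACS pair, while H2afx goes from 1.86 to 1.72 and H1f0 from 1.81 to 1.82.

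Hist1h1b (chr13:21779832-21780625, RefSeq symbol H1f5) and Hist1h1c (chr13:23738807-23739531, RefSeq symbol H1f2) are linker histone genes of the large histone cluster. Clustered histone genes resemble each other closely, so their read split is uncertain too. Hist1h1b stood at 1128 CPM for FACS BFU-E, 1177 for PE-low and 1476 for CS BFUE, and at 1371 for FACS CFU-E, 1287 for PE-high and 1592 for CS CFUE. Over cells without a pool it stood at 1813. Stage ratios over all cells were 0.823 (0.799 to 0.849), 0.914 (0.890 to 0.939) and 0.927 (0.895 to 0.960), slightly below 1 in each pair. Within cycle ranges the direction was not the same throughout. Among cells high for S and low for G2/M the ratio was 1.09 for FACS, 1.21 for PE and 0.805 for CS. Among cells low for S and high for G2/M it was 0.926, 1.16 and 0.984 (0.931 to 1.04). Among cells low for both it was 0.738 for PE and 0.818 for CS. Each of these ratios above 1 had its interval above 1 too. Hist1h1c stood at 87.1, 79.3 and 117 CPM in the same earlier pools and 99.0, 97.9 and 105 in the later ones, with ratios of 0.879, 0.810 and 1.11.

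Single cells were spread widely for Hist1h1b. The middle 50% of cells ran from 158 to 1722 CPM in FACS BFU-E, 194 to 1747 in PE-low and 291 to 2336 in CS BFUE. In FACS CFU-E it ran from 683 to 1946, in PE-high from 398 to 1891 and in CS CFUE from 672 to 2635 CPM. The lower quartile was thus lower in the earlier pool of each pair, while upper quartiles differed less.

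Along the S phase share Hist1h1b was higher in each quintile. It stood at 802, 876, 1187, 1496 and 1828 CPM in the hashed library and at 1064, 1427, 1755, 2152 and 2639 in the CITE-seq library. The last quintile was 2.28 and 2.48 times the first. Cells above the S median exceeded those below it in all 7 groups, with ratios of 1.48 (CS BFUE) to 1.95 (PE-low) and each interval above 1. Hist1h1c stood at 78.2 in the first and 135 CPM in the last hashed quintile, and at 87.5 and 203 in the CITE-seq library. Its ratios ran from 1.04 (CS BFUE, 0.812 to 1.33) to 2.02 (PE-high), and the interval was above 1 in 6 of 7 groups. Along the S split 2 of the 10 genes were past 1.5-fold upward in each library, Hist1h1b and Hist1h1c, where 1.93% (hashed) and 2.19% (CITE-seq) of all genes were. Downward were 3 in the hashed library (H2afy, H2afx and H1fx) and 2 in the CITE-seq library (H2afy and H1fx), beside 1.93% and 1.16% of all genes. In either direction 3.86% and 3.35% of all genes were past it.

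**Figure D5:**
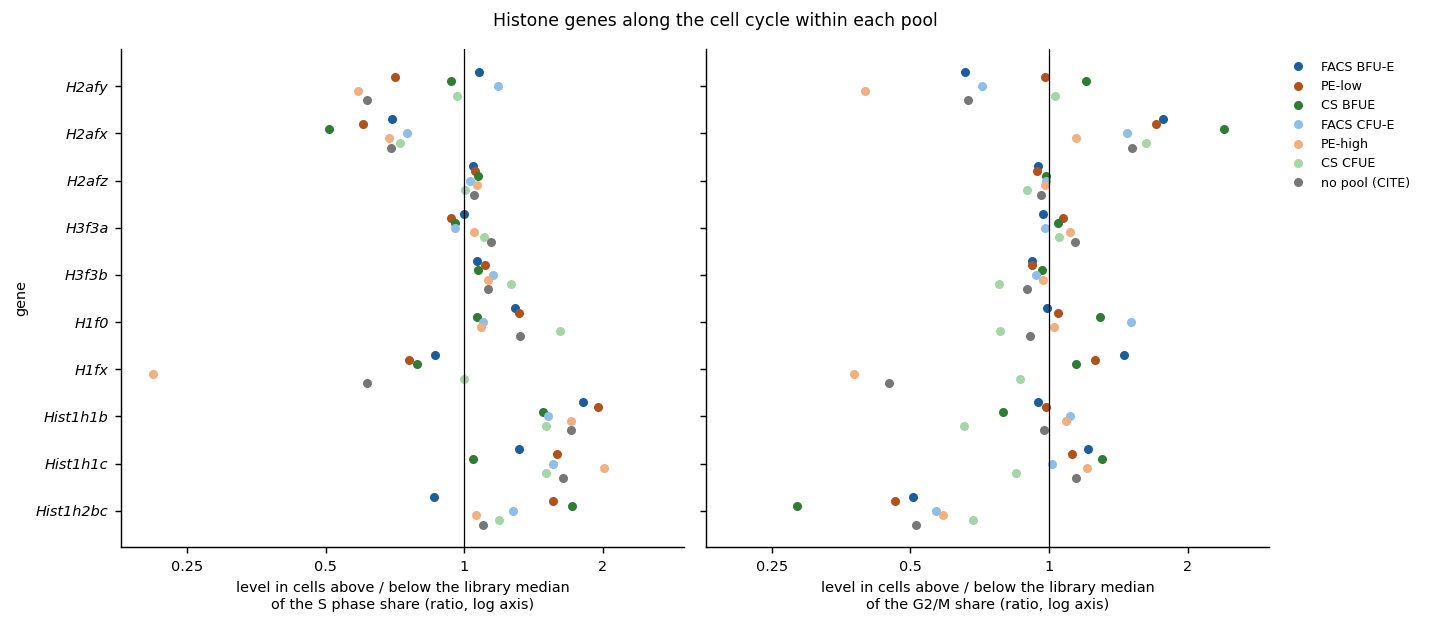
Ratio of the level in cells above to that in cells below the library median of the S phase share (left) and of the G2/M share (right), on log axes, for each gene in 6 pools and the cells without a pool, without error bars and without H1fx in FACS CFU-E, where it had 0 UMIs. Hist1h1b lies right of 1 for S in every group, H2afx left of 1 for S and right of 1 for G2/M in every group, and Hist1h2bc left of 1 for G2/M in every group.

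The H1 genes of the cluster were high in the same single cells. Hist1h1b was most like Hist1h1e (r = 0.86), Hist1h1a (0.82) and Hist1h2ae (0.78), and the hashed cells gave 0.85, 0.78 and 0.66. Hist1h1c was most like Hist1h1e (0.67), Hist1h1b (0.65) and Hist1h1a (0.63). The summed core histones of the cluster (58 genes) were also higher along the S phase share, at 594 CPM in the first and 873 in the last hashed quintile, and at 1117 and 1835 in the CITE-seq library. The replication-independent H1f0 and H1fx had r of 0.14 and -0.07 with Hist1h1b. The H1 box and CCAAT shared by Hist1h1b and Hist1h1c are in the printed promoters.

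Hist1h2bc (chr13:23684199-23692480, RefSeq symbol H2bc4) is an H2B gene of the cluster. It stood at 64.0 CPM (58.4 to 70.0) for FACS BFU-E, 37.0 (32.6 to 41.7) for PE-low and 28.0 (22.3 to 34.7) for CS BFUE. The later pools had 23.7 (FACS CFU-E), 27.0 (PE-high) and 19.4 (CS CFUE), and cells without a pool 26.6. FACS BFU-E stood apart from every other group. The stage ratio was 2.70 (2.24 to 3.26) for FACS, 1.37 (1.16 to 1.62) for PE and 1.44 (1.09 to 1.90) for CS. The CS ratio was past 1.5-fold with cells weighted equally (1.61), without the top 5% of cells by UMIs (1.51) and after thinning to 10000 UMIs per cell (2.26). PE-low had 0.578 times (0.495 to 0.673) the FACS BFU-E level. Along with H1fx it was 1 of 2 members lower in PE-low by more than 1.5-fold, where 0.796% of all genes compared were past that size, 0.306% higher and 0.49% lower. Within the first stage quintile the same ratio was 0.525 (0.417 to 0.658), at 51.9 against 98.9 CPM. Cells of other types held 46.0% of its UMIs in FACS BFU-E and made up 84.0% of the first hashed stage quintile.

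Hist1h2bc ran against the G2/M share. Cells above the G2/M median had less of it in all 7 groups, with ratios from 0.283 (CS BFUE, 0.153 to 0.494) to 0.683 (CS CFUE, 0.482 to 0.975). Over G2/M quintiles of the hashed library it stood at 84.8, 36.2, 33.0, 20.6 and 22.2 CPM, and in the CITE-seq library at 47.9, 27.9, 24.6, 16.8 and 17.8. Cells of other types made up 47.5% of the first hashed quintile and 4.97% to 16.7% of the later ones, and 16.5% of the first CITE-seq quintile. In FACS BFU-E such cells had 97.3 CPM of Hist1h2bc against 49.6 in the rest. Their part in the first step was not tested. Hist1h2bc was past 1.5-fold downward in both libraries, where 1.8% and 0.353% of all genes were (4.89% and 3% in either direction), beside H2afy in the hashed and H1fx in the CITE-seq library. Its levels over S quintiles were 42.1 and 35.4 CPM at the ends in the hashed library, where pools of different stage are mixed. Within groups, cells above the S median had 0.861 to 1.72 times the Hist1h2bc of cells below it. That ratio was above 1 in 6 of 7 groups. Its interval lay above 1 in 2 of them, PE-low (1.55, 1.21 to 2.00) and CS BFUE (1.72, 1.06 to 2.73), and below 1 in 0. In stage quintiles it stood at 77.0 down to 20.1 CPM in the hashed library and 37.6 down to 21.9 in the CITE-seq library. No gene reached an r of 0.2 with it over the cells without a pool, and over hashed cells its r with H2afy was 0.29.

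Among genes that act with these histones, the linker histone competitors and heterochromatin list (18 genes, 13 compared) had 3 past 1.5-fold in the FACS pair, all higher in FACS BFU-E, where 18.7% of all genes compared were past it and 9.58% were higher. They were Hmga2 at 154 and 5.29 CPM, Hmgn2 at 215 and 98.2, and Hmga1 at 52.9 and 33.7, chromatin proteins that bind DNA or nucleosomes. Hmga2 was 29.2 (20.6 to 42.6) times higher in FACS BFU-E, 5.46 times higher in PE-low and 15.9 times higher in CS BFUE than in the later pools. The list's median log2 ratio was 0.09 beside -0.04 over all genes. Slbp, the stem-loop binding protein of histone mRNA, was lower in FACS BFU-E (198 CPM) than in FACS CFU-E (299.7), and lower in CS BFUE (143) than in CS CFUE (224). It was 1 of 8 and 1 of 7 genes of histone mRNA transcription and processing compared in these pairs to pass 1.5-fold, beside 9.15% and 10.7% of all genes that were lower in the earlier pool by that size. None of the H2A-H2B chaperones (9 compared) passed it in any stage pair.

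Of 66 other histone genes, 12 were compared in the FACS pair. Hist1h1a was lower in FACS BFU-E (118 CPM) than in FACS CFU-E (181), and no other of them passed 1.5-fold, where 18.7% of all genes compared did. In the PE pair 0 of 12 passed (12.8% of all genes), and in the CS pair 1 of 13 (19.5% of all genes), Hist1h1d, which was higher in CS BFUE (117 against 71.3 CPM).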

How the data were processed

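Single-cell RNA of 2 libraries was studied. Their values were deposited by the authors as natural log values. With the log undone and 1 subtracted, every cell sums to 10000, so a value is ln(1 + UMIs scaled to 10000). Scanpy, Cell Ranger 4.0.0 and the mm10 build are named in the submitters' processing notes. Filters on cells and any removal of doublets were not given in the sources used here. Pool names, the other deposited column, are labels given by the authors. Whole UMI counts were recovered by dividing by each cell's smallest nonzero value (100% of 16419767 values whole within 0.02). Cells with 1 barcode suffix carry the hashed names, and the other suffix was taken as the CITE-seq library by elimination.

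Counts were summed per pool and scaled to 1000000, with Python 3.11.15, numpy 2.4.6, scipy 1.17.1 and pandas 2.3.3. No test was run and no doublet caller was used. The recovery and the ratios were tested on simulated data. Stage index, cycle shares, filter and floor (3 counts of a pool at 0) are as in the report. Cells within 10% of a cycle median numbered 303 and 285 (S and G2/M) of the hashed and 788 and 685 of the CITE-seq cells. Named genes are the 10 members, up to 4 genes per list with the largest FACS ratio past 1.5-fold, the 3 genes of highest r with each member where r was at least 0.2, and Kit and Tfrc. H2afy2, Asf1a, Hist1h1d, Cenpa, H2afv and H2afj were named after their values were seen. The members and lists were chosen with earlier results of these data known. Alternatives were another scaling, equal weight per cell or per cycle range, thinning to 10000 UMIs, leaving out cells of other types or the top 5% by UMIs, a 2-fold limit and no filter. Symbols were found for 17592 of the gene IDs, 16 had none, and positions are from RefSeq GRCm38.p6.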

Additional observations from a re-analysis of the deposited data

Results flagged for a closer look

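H3f3b lay on opposite sides of 1 in the CITE-seq and PE stage pairs. The ratio of CS BFUE to CS CFUE was 1.14 (1.10 to 1.18), and the ratio of PE-low to PE-high was 0.957 (0.936 to 0.978). The difference between these ratios was not tested, since each pool is 1 sample. Neither ratio was past 1.5-fold.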

How the results depend on the processing

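No paired analysis was possible because each pool is 1 sample and no replicate numbers are given. Of 50 member ratios (10 genes, 5 pairs), 1 was labelled reversed, and it is a lower bound. H1fx in PE-high over FACS CFU-E, which had 0 UMIs, was at least 0.947 after thinning to 10000 UMIs per cell. It was at least 3.40 before, so no reversal is shown. Other ratios near 1 also changed side under some alternatives. Hist1h1b rose from 0.823 to as high as 1.02 in the FACS pair and from 0.914 to 1.05 in the PE pair. H2afz fell from 1.02 to as low as 0.974 in the PE pair. H1f0 in PE-low over FACS BFU-E fell from 1.06 to as low as 0.864. How many ratios did so was not counted. Relative to their counting intervals, 19 ratios moved without cells of other types, 3 with cells weighted equally, 19 with equal weight to cycle ranges, 13 with median-of-ratios scaling, 18 after thinning and 0 without the top 5% of cells. Over these alternatives, ratios that moved by over 1.5 times were H2afy in the FACS pair (4.73 to 10.8), the CS pair (3.84 to 8.48) and PE-high over FACS CFU-E (1.55 to 2.73), H1fx in the FACS pair (a bound of 19.6 to 64.8), the PE pair (5.59 to 24.2) and PE-high over FACS CFU-E (a bound of 0.947 to 4.59), and Hist1h2bc in the CS pair (1.32 to 2.26). Scaling moved the median over all genes by less than 0.1 on the log2 scale. With a 2-fold limit, 329 of 3476 genes compared were past it in the FACS pair. The PE pair had 217 of 3443 and the CS pair 290 of 3077. PE-low over FACS BFU-E had 10 of 3267 and PE-high over FACS CFU-E 15 of 3257. Of the 10 members, counted without the filter, 3 were then past it in the FACS pair and 2 in the CS pair. PE-low over FACS BFU-E had 0. In the PE pair H2afy (3.68) and H1fx (10.7) were past it, and in PE-high over FACS CFU-E H2afy (2.54) and H1fx (at least 3.40). With no filter the counts of genes in these 5 pairs were 6544, 6654, 6768, 3674 and 4228. Without cells of other types, PE-low over FACS BFU-E had 11 genes past 1.5-fold, and PE-high over FACS CFU-E had 17 genes. After thinning, PE-high over FACS CFU-E had 52 genes. Thinning left out 0 cells of PE-high and 0 of FACS CFU-E. The number of genes compared under these alternatives is not given here, and the cause of the changes was not tested. Equal weight to cycle ranges used only ranges with at least 20 cells in both pools, so cells high for both shares were left out of the stage pairs. Ratios of the first to the last stage quintile without cells of other types were an alternative chosen after seeing the data. Genes with few UMIs, such as H1fx, are limited by depth.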

Other observations

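Other histone variants were measured beside the 10 genes, and none of those named here was past 1.5-fold in a stage pair. Cenpa, the centromeric H3 variant, stood at 187, 213 and 189.7 CPM for FACS BFU-E, PE-low and CS BFUE and at 223, 239 and 224 for FACS CFU-E, PE-high and CS CFUE. H2afv, the second H2A.Z gene, stood at 220, 217 and 265 CPM in the earlier pools and 171, 162 and 177 in the later ones, in the same order. H2afj, an H2A variant gene, stood at 242, 250.3 and 403 CPM in the earlier pools and 202, 213 and 353 in the later ones. Cenpa was lower, and H2afv and H2afj higher, in the earlier pool of each pair.

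The 58 clustered core histone genes summed to 752 CPM for FACS BFU-E and 785 for FACS CFU-E, to 616 and 704 for PE-low and PE-high, and to 1439 and 1162 for CS BFUE and CS CFUE. The CITE-seq groups were above all hashed pools, and the CS pair had the opposite order to the other pairs. The 4 linker histone genes not described above summed to 490.2 and 611 CPM, 512 and 586, and 701 and 563 in the same pairs. Library and pool names cannot be told apart for these sums.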
